A study of Mus musculus with 6 samples.

Results

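The lysyl oxidases and the lysyl hydroxylases are the enzymes that prepare and start the covalent cross-linking of collagen. The 8 genes followed here are the oxidases Lox, Loxl1, Loxl2, Loxl3 and Loxl4 and the hydroxylases Plod1, Plod2 and Plod3. They were chosen by name, as every array spot whose only gene symbol was one of these, which gave 10 of 45220 spots and 8 of 19077 measured genes. Loxl4 and Plod3 had 2 spots each and every other member had 1.

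Lysyl hydroxylases work inside the endoplasmic reticulum, where they add a hydroxyl group to chosen lysines of newly made collagen chains, and some of these hydroxylysines are then loaded with sugar. Lysyl oxidases are secreted copper enzymes that oxidise lysine and hydroxylysine side chains outside the cell to aldehydes, which react with neighbouring chains to form the cross-links of fibrils and elastic fibres. Whether the lysine of the collagen telopeptide was hydroxylated beforehand decides which kind of cross-link forms, and the hydroxylysine-derived kind is typical of cartilage and bone.

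The RNA came from microdissected tibial and fibular regions of hind limbs of Swiss white mouse embryos, in 3 pools. These were pre-condensed mesenchyme at 11.5 dpc (days post coitum) from 4 limbs, mesenchymal condensations at 12.5 dpc from 3 limbs and cartilage anlagen at 13.5 dpc from 4 limbs. Each pair of pools was hybridised on 2 two-colour arrays, with Cy5 on the later pool in dye combination 1 and Cy3 on the later pool in dye combination 2. No embryo carried a transgene or a treatment according to the labels. The tissue was cut from 231 sections of 6 µm, so cells next to the condensation could be included, and the RNA passed through 2 rounds of linear amplification.

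Values are log2 ratios of the later over the earlier pool, taken after subtracting the median of its array, and a fitted value is the least squares estimate from all 6 arrays. With 1 pool per time point no test between time points was possible and no p-value is given. The error quoted after ± is a technical standard error (SE), computed from the 4 residual degrees of freedom of the fit, and says nothing of the spread between embryos. The 3-fold threshold of the study's methods was used, which is 1.58 on the log2 scale. Fewer cells of a type and less RNA per cell cannot be told apart in such pools.

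The arrays of a pair correlated at 0.397, 0.332 and 0.518 over all spots for 12.5 over 11.5, 13.5 over 12.5 and 13.5 over 11.5 dpc, and at 0.498, 0.502 and 0.751 over the spots that were not dim. A spot was called dim where its value equalled, on 2 or more arrays, a ratio of whole numbers no larger than 12, as weak signals do. The labelled tissue was checked on cartilage markers, of which 10 of 13 passed 3-fold upward in 13.5 over 11.5 dpc, with a list median of 2.65 log2. Markers of other tissues also differed. In that comparison Ibsp, Alpl and Sp7, or 3 of 4 measured osteoblast markers, were at least 3-fold higher, as were Lum and Col1a1 among 10 markers of perichondrium, tendon and fibrous tissue, Myh3 and Acta1 among 9 of skeletal muscle, and Cspg4 among 6 of smooth muscle and pericytes. Pcdh8 and Msx2 among 8 markers of condensation and limb mesenchyme, Tie1 among 8 endothelial markers, Hbb-bh1 and Hbb-y among 5 erythroid markers and Mrc1 among 4 macrophage markers were at least 3-fold lower, and none of 7 ectoderm markers passed the threshold. Several lists were mixed in 13.5 over 11.5 dpc. Above 0 there were 11 of 13 cartilage, 3 of 4 osteoblast and 7 of 10 perichondrial, tendon and fibrous markers. So were 7 of 9 of skeletal muscle and 4 of 6 of smooth muscle and pericytes. Those below 0 included Sox9 (-0.40), Bglap (-1.18), Scx (-1.54), Myf5 (-0.42) and Pdgfrb (-0.37). The paper counts Cspg4 among cartilage matrix genes. Of endothelial and macrophage markers, 2 of 8 and 2 of 4 were above 0. The part of these tissues in the values of the cross-linking enzymes was not tested.

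Lox had the highest fitted value of the 8 genes in each comparison. On single arrays Loxl4 was higher in 12.5 over 11.5 dpc (2.28, dye combination 2) and Loxl3 in 13.5 over 12.5 dpc (1.21, dye combination 1), and 1 of the spots of Plod3 had a higher fit in the later step. Lox is the founding member of its family and oxidises fibrillar collagens and elastin. In 12.5 over 11.5 dpc its log2 ratio was 1.14 and 1.87 on the arrays of dye combination 1 and 2. In 13.5 over 12.5 dpc it was 1.06 and 1.99, and in 13.5 over 11.5 dpc it was 2.95 and 3.48. Every array thus had Lox higher in the later pool, and within each pair dye combination 2 gave the higher ratio. The fitted values were 1.57, 1.58 and 3.15 (± 0.27 each), so the level at 11.5, 12.5 and 13.5 dpc stood at 1, 2.97 and 8.88 times the lowest. Each step alone lay just under 3-fold, at 2.97-fold and 2.995-fold, and the steps differed by 0.01 ± 0.46 log2. Lox ranked 118 of 19077 genes in 13.5 over 11.5 dpc. It was at least 2-fold higher in both steps, a pattern, chosen after the values were seen, that 0.666% of all genes showed.

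Loxl3 was the other member past the threshold. It belongs to the branch of the family that carries scavenger receptor domains, and in mice its loss is known to affect the palate and the spine. Its direct arrays read 0.72 and 0.56 in 12.5 over 11.5 dpc. They read 1.21 and 1.197 in 13.5 over 12.5 dpc, and 2.04 and 1.67 in 13.5 over 11.5 dpc. Both dye combinations gave nearly the same ratio in the later step, and all 6 arrays had the later pool higher. The fitted values were 0.64, 1.21 and 1.85 (± 0.083 each), and the levels at 11.5, 12.5 and 13.5 dpc were 1, 1.56 and 3.61 times the lowest. In contrast to Lox, its later step was the larger one, by 0.56 ± 0.14 log2 against a median over all genes of -0.002. Without centring that median was -0.73 and the gap of Loxl3 was -0.17, so the sign of the gap, though not its place above the median, rested on the centring.

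Lox and Loxl3 were thus the 2 of 8 members that passed 3-fold upward in the fit of 13.5 over 11.5 dpc, where 2.93% of all genes passed, and both passed on each direct array, as did 2.03% of genes. No member was at least 3-fold lower in that comparison, where 2.57% of genes were. In 12.5 over 11.5 dpc 0 of 8 members were at least 3-fold higher and 0 were lower, against 1.24% and 0.299% of all genes. The counts were again 0 and 0 in 13.5 over 12.5 dpc, against 1.35% and 0.776%. At a 2-fold threshold 1 of 8 members (Lox) was higher and 1 (Plod2) lower in 12.5 over 11.5 dpc, where 6.23% and 2.56% of all genes were. There were 4 of 8 at least 2-fold higher in 13.5 over 12.5 dpc (Lox, Loxl3, Plod2 and Plod3), against 4.79% of genes, and in 13.5 over 11.5 dpc 4 of 8 (Lox, Loxl3, Loxl4 and Plod3), against 7.43%.

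**Figure D1:**
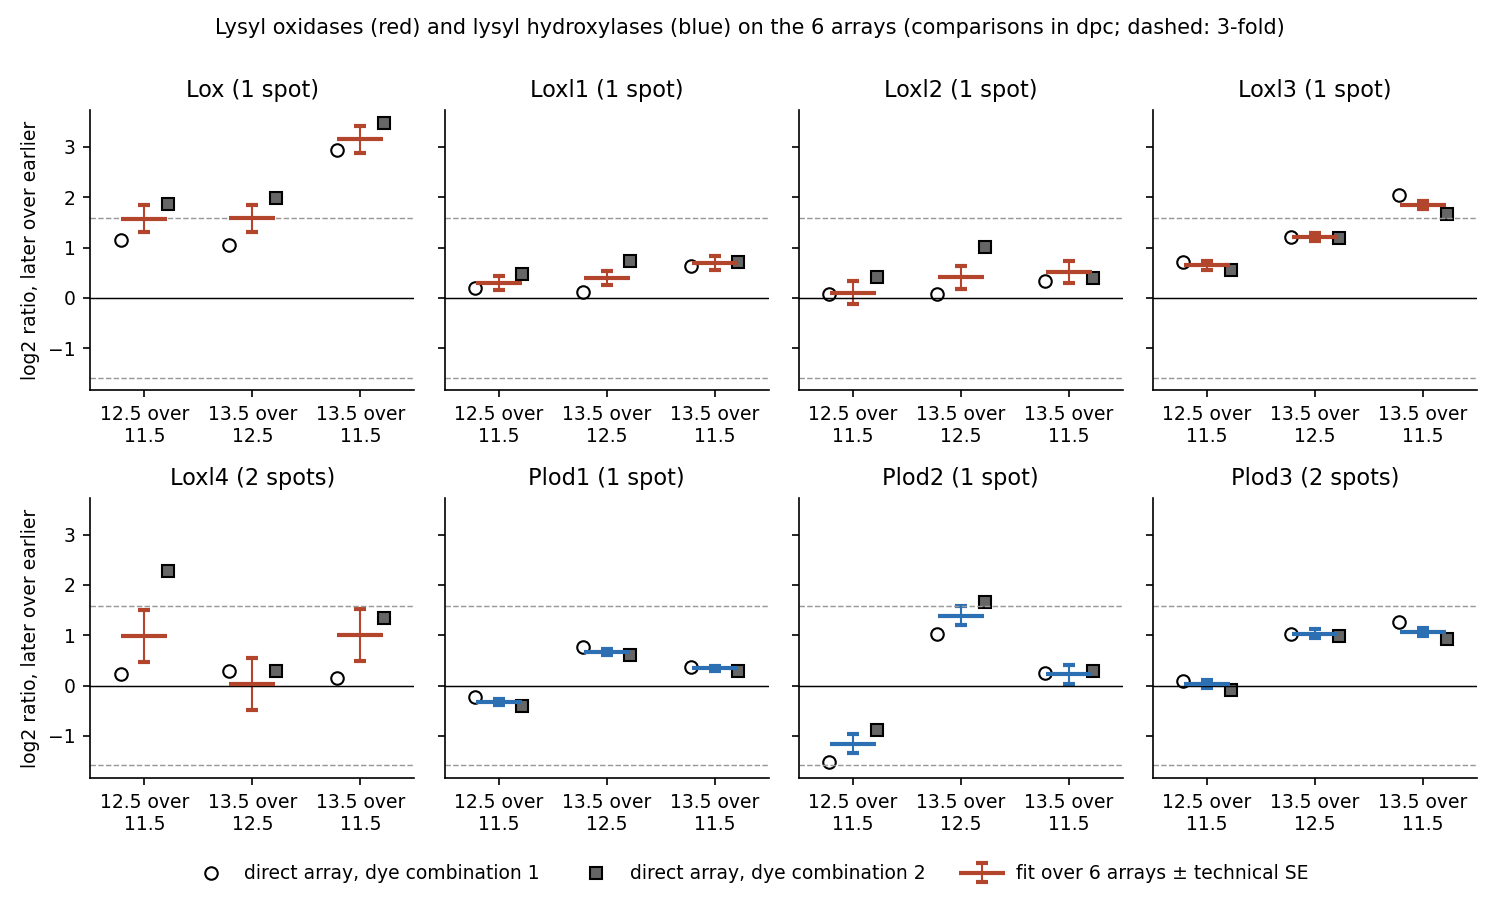
Log2 ratio of the later over the earlier pool for each of the 8 genes (vertical axis) in the 3 comparisons (horizontal axis, in dpc). Open circles and grey squares are the direct arrays of dye combination 1 and 2, horizontal bars are the fit over 6 arrays with its technical SE, and dashed lines mark 3-fold; Lox reaches 3.15 in 13.5 over 11.5 dpc and Plod2 is at -1.16 in 12.5 over 11.5 dpc.

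Loxl1 and Loxl2 differed little between the pools. Loxl1, which is known for its part in elastic fibre assembly, had direct ratios of 0.19 and 0.48 in 12.5 over 11.5 dpc. It had 0.12 and 0.72 in 13.5 over 12.5 dpc, and 0.64 and 0.70 in 13.5 over 11.5 dpc. All 6 were above 0 and the fitted values were 0.30, 0.40 and 0.70 (± 0.14 each), which puts its level at 13.5 dpc at 1.62 times that at 11.5 dpc. Loxl2 oxidises collagen IV and other matrix substrates. Its direct ratios were 0.08 and 0.41, then 0.08 and 1.01, then 0.34 and 0.40 in the same order of comparisons. The fitted values of Loxl2 were 0.10, 0.41 and 0.51 (± 0.23 each), so its value in the earlier step was smaller than its technical SE. Over the 6 arrays these genes lay closest together of any pair of members, with a root mean square distance of 0.22 log2.

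Loxl4, another member with scavenger receptor domains, could not be placed firmly, because its 2 spots disagreed. The spot numbered 18404 in the deposited table read 0.11 and 0.82 in 12.5 over 11.5 dpc. It read 0.80 and 0.64 in 13.5 over 12.5 dpc, and 1.17 and 2.07 in 13.5 over 11.5 dpc. This spot was higher in the later pool on every array, with fitted values of 0.61, 0.87 and 1.48 (± 0.26 each). The spot numbered 33978 was the one dim spot among the 10. It read 0.35 and 3.73, then -0.20 and -0.05, then -0.88 and 0.60 in the same order of comparisons. Its fitted values of 1.36, -0.81 and 0.55 had an SE of 0.90 each. The mean of both spots was 0.98, 0.03 and 1.01 (± 0.52 each), and the gap of 1.68 between the spots in the later step was wider than in 96.4% of the 5218 genes with 2 spots.

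**Figure D2:**
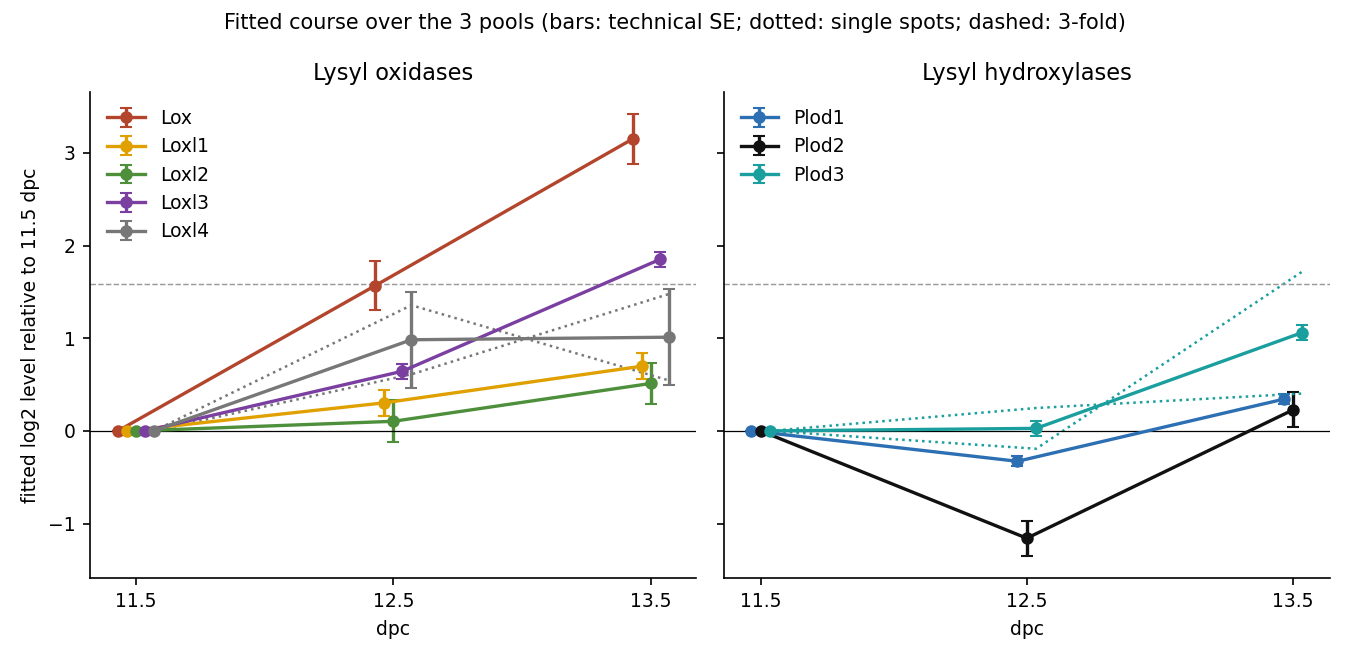
Fitted log2 level relative to 11.5 dpc (vertical axis) at 11.5, 12.5 and 13.5 dpc (horizontal axis) for the 5 oxidases (left) and the 3 hydroxylases (right), with technical SE as bars, the single spots of Loxl4 and Plod3 as dotted lines and 3-fold as a dashed line. The oxidases lie at or above their starting level at both later time points, whereas Plod2 is 1.16 log2 lower at 12.5 dpc and 0.23 higher at 13.5 dpc than at 11.5 dpc.

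Plod2, which acts on the telopeptide lysines of fibrillar collagens, took another course than the oxidases. In 12.5 over 11.5 dpc its direct ratios were -1.53 and -0.88. In 13.5 over 12.5 dpc they were 1.02 and 1.66, and in 13.5 over 11.5 dpc they were 0.25 and 0.29. The pool of 12.5 dpc was thus the low one on all 4 arrays that held it, and the outer pools were close to each other. The fitted values were -1.16, 1.38 and 0.23 (± 0.19 each), and the levels at 11.5, 12.5 and 13.5 dpc were 2.23, 1 and 2.61 times the lowest. Plod2 lay at percentile 1.39 of all genes in the earlier step and at percentile 97.9 in the later one. The later step exceeded the earlier by 2.54 ± 0.33 log2, a gap larger than that of 99.6% of genes. Both steps share the pool of 12.5 dpc, from 3 limbs, and a single spot measured the gene.

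Plod2 was 1 of 40 genes, or 0.21% of all, at least 2-fold lower at 12.5 dpc than at both other time points, a criterion chosen after the values were seen. Without centring Plod2 was 1.64-fold lower at 12.5 than at 11.5 dpc and 2.15-fold higher at 13.5 than at 12.5 dpc, and 3 genes met the criterion. With centring on the spots that were not dim the first of these was 1.98-fold and 14 genes met it. Without the array of dye combination 1 in 12.5 over 11.5 dpc it was 1.97-fold, so Plod2 no longer met the criterion under any of these 3 alternatives. The pool of 12.5 dpc was the lowest in each of the 16 alternatives, in which the earlier step ranged from -1.30 to -0.71 and the later from 1.11 to 1.57.

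Plod1, which hydroxylates lysines of the collagen helix, had the same shape in a shallower form. By root mean square distance over the 6 arrays, however, Plod1 lay nearer to the oxidase Loxl2 (0.48 log2) than to Plod3 (0.52) or Plod2 (0.72). Its direct ratios were -0.22 and -0.41 in 12.5 over 11.5 dpc. They were 0.76 and 0.60 in 13.5 over 12.5 dpc, and 0.38 and 0.29 in 13.5 over 11.5 dpc. The fitted values were -0.33, 0.67 and 0.34 (± 0.054 each), the smallest technical error of the 8 genes, and the levels at 11.5, 12.5 and 13.5 dpc were 1.26, 1 and 1.59 times the lowest. The value of the earlier step was 0.12 without centring, so its sign depended on the scaling, whereas the later step was above 0 in each of the 16 alternatives, from 0.39 to 0.72.

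Plod3, which can both hydroxylate lysine and add sugar to hydroxylysine, had 2 spots that gave different accounts of the later step. The spot numbered 41367 read -0.15 and -0.19 in 12.5 over 11.5 dpc. It read 1.77 and 2.09 in 13.5 over 12.5 dpc, and 2.14 and 1.26 in 13.5 over 11.5 dpc, with fitted values of -0.19, 1.91 and 1.72 (± 0.19 each). The spot numbered 28768 read 0.32 and 0.004, then 0.28 and -0.14, then 0.40 and 0.58, with fitted values of 0.25, 0.16 and 0.40 (± 0.13 each). One spot was therefore past 3-fold in the later step and the other close to 0. Their gap of 1.76 there was wider than in 97.0% of genes with 2 spots. Neither spot was dim and both carry the same transcript in the annotation. The mean of the spots was 0.03, 1.03 and 1.06 (± 0.085 each), and this SE does not include the disagreement.

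Of the 8 members, 3 had a promoter in the RefSeq table used here, Loxl4, Plod1 and Plod3. The 250 bases before the start of Plod1 and Plod3 are shown because lysyl hydroxylase genes, above all Plod2, are known to respond to low oxygen. All 8 members had a fitted value above 0 in 13.5 over 12.5 dpc. That of Loxl4 was 0.03 ± 0.52 and below 0 in 9 of 16 alternatives, and that of Plod3 came mostly from spot 41367. Capitals mark each match, on either strand, to the core of the hypoxia response element, ACGTG or GCGTG. The sequences are in build GRCm38.p6, written 5′ to 3′ on the strand of the gene, at chr4:147936777-147937026 (minus strand) and chr5:136986769-136987018 (plus strand).
Plod1: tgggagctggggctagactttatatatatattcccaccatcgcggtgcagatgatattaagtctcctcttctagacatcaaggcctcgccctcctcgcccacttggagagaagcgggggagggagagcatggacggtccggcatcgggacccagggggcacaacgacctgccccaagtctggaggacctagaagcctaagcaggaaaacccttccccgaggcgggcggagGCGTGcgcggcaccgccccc
Plod3: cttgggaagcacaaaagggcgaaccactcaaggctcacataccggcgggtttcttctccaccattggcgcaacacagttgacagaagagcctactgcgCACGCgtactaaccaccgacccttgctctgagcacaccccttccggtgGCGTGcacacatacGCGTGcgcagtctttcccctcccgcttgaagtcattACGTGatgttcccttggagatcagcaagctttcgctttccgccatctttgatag
Plod1 held 1 match and Plod3 held 4, which do not overlap one another, and the promoter of the oxidase Loxl4, not printed, also held 1. At least 1 match occurred in 38.6% of 27025 promoters of this length, so a match is a description and marks no site of binding. The proportion of G and C was 61.6% in Plod1 and 55.6% in Plod3, against a median of 52% over all promoters.

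Set side by side, Lox and Loxl3 lay above the hydroxylases, and Plod1 and Plod2 below the oxidases, in the fit of the earlier step. In 12.5 over 11.5 dpc all 5 oxidases were above 0 on both direct arrays, as were 34.4% of all genes, while Plod1 and Plod2 were below 0 on both, as were 37.3% of genes, and Plod3 had opposite signs. The fitted values ran from 0.10 to 1.57 in the oxidases and from -1.16 to 0.03 in the hydroxylases. These ranges did not overlap, although their nearest ends, Loxl2 and Plod3, lay within the technical SE of Loxl2. They overlapped in 4 of the 16 alternatives, on the indirect path alone, with dye combination 1 alone, without 12.5 over 11.5 dpc array 2 and without 13.5 over 12.5 dpc array 1, and the fitted 0.25 of Plod3 spot 28768 lies inside the range of the oxidases. In 13.5 over 12.5 dpc 8 of 8 members were above 0 on both arrays, against 32.8% of genes, and in 13.5 over 11.5 dpc again 8 of 8, against 34.9%. Both counts use the mean of a gene's spots. In 13.5 over 12.5 dpc spot 33978 of Loxl4 read -0.20 and -0.05, and spot 28768 of Plod3 read -0.14 with dye combination 2. The former read -0.88 in 13.5 over 11.5 dpc with dye combination 1. The fitted 0.03 ± 0.52 of Loxl4 in 13.5 over 12.5 dpc was below 0 in 9 of the 16 alternatives. The 8 genes are members of related families in 3 pools and not independent samples.

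The medians gave the order in a shorter form. That of the oxidases was 0.64, 0.41 and 1.01 in 12.5 over 11.5, 13.5 over 12.5 and 13.5 over 11.5 dpc, and that of the hydroxylases -0.33, 1.03 and 0.34. Among these, 1.01 is the value of Loxl4 and 1.03 that of Plod3, the members whose 2 spots disagreed. The median over all genes was -0.01, -0.04 and 0.07. Without centring the medians of the earlier step were 1.09 for the oxidases, 0.12 for the hydroxylases and 0.44 for all genes, so the hydroxylases changed sign and stayed below the median of all genes. Over the 8 members the median was 0.20, 0.85 and 0.85. The gap between the later and the earlier step was 1.00 ± 0.093 in Plod1, 2.54 in Plod2 and 1.01 ± 0.15 in Plod3, and lay between -0.96 ± 0.90 in Loxl4 and 0.56 in Loxl3 among the oxidases. That of Plod3 came from spot 41367, with -0.19 in the earlier and 1.91 in the later step. Spot 28768 had 0.25 and 0.16, so its later step was the smaller one, and the SE leaves this disagreement out. Without centring the gap was 0.27, 1.82 and 0.28 in the hydroxylases and between -1.68 and -0.17 in the oxidases, when the median over all genes was -0.73.

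**Figure D3:**
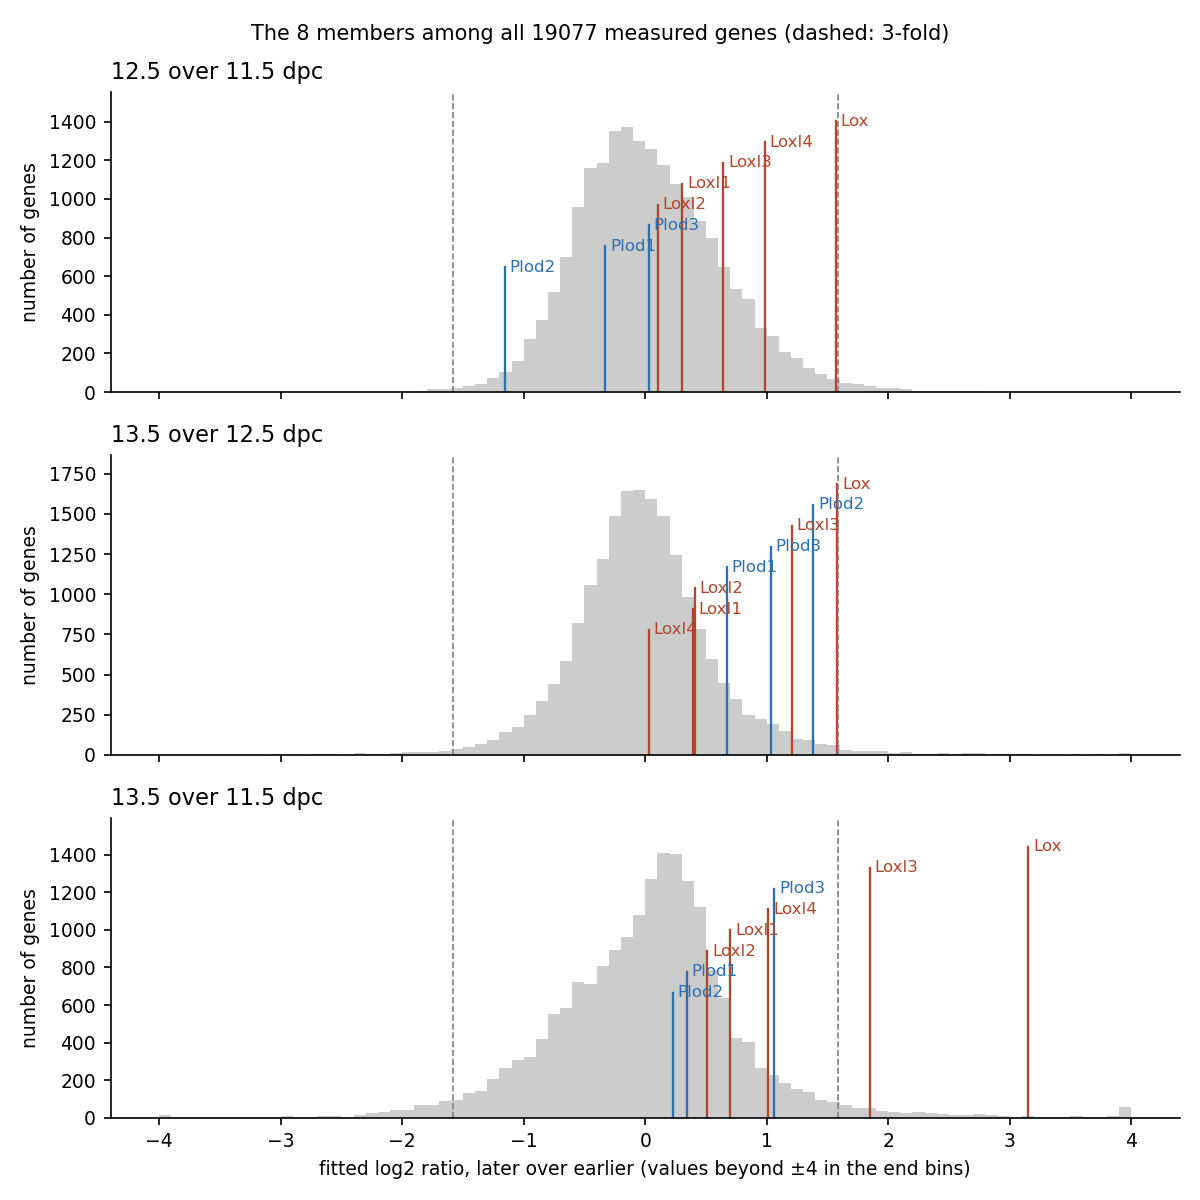
Number of genes (vertical axis) by fitted log2 ratio of the later over the earlier pool (horizontal axis) for 19077 genes in each comparison, with oxidases in red and hydroxylases in blue; the height of a coloured line only separates the labels, and dashed lines mark 3-fold. In 12.5 over 11.5 dpc the 3 hydroxylases are the lowest of the members, and in 13.5 over 11.5 dpc Lox and Loxl3 lie beyond 3-fold.

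The measured genes that work with the lysyl hydroxylases were all above 0 in the fit of the later step, as were 46.5% of all genes. The list of partners, which act in the same complexes or add sugar to hydroxylysine, had 6 of 7 genes measured. Of these, 2 passed 3-fold upward in 13.5 over 12.5 dpc and 3 in 13.5 over 11.5 dpc, and none was lower. Without centring, or with centring on the spots that were not dim, the first of these counts was 1, as Colgalt1 dropped out. The medians were 0.16 in 12.5 over 11.5 dpc and 1.42 in 13.5 over 12.5 dpc, and the later step was the larger in 6 of 6, or in 4 of 6 without centring. Over all genes the median gap between the later and the earlier step was -0.002, or -0.73 without centring. Of the lists described below, the later step was also the larger in 6 of 7 genes of the prolyl hydroxylase list and 9 of 12 substrates. It was so in 9 of 12 genes that activate, load or dock the oxidases, 13 of 16 hypoxia-response genes and 3 of 6 other cross-linkers. Without centring these counts fell, in the same order of lists, to 5 of 7, 7 of 12, 5 of 12, 11 of 16 and 0 of 6. The gap then lay above the median of all genes in 6, 9, 9, 13 and 3 genes. Colgalt1, the galactosyltransferase of hydroxylysine, had fitted values of 0.15, 1.67 and 1.83 (± 0.19 each). Its relative Colgalt2 had 1.33, 1.49 and 2.82 (± 0.14 each). Serpinh1, the collagen chaperone HSP47, is counted among them, but its direct arrays in 13.5 over 11.5 dpc were 4.89 and -0.27, so its fitted 2.26 ± 1.45 rested on 1 dye combination. In 13.5 over 12.5 dpc the direct arrays of Serpinh1 were 4.04 and -0.205. Those of Ppib were 1.42 and -0.27 there, with a fitted 0.52 ± 0.67. P3h3 and P3h4, which form a complex with Plod1, had 1.35 ± 0.15 and 1.24 ± 0.14 in the later step and -0.15 and 0.13 in the earlier.

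The prolyl hydroxylases modify proline in the same chains and need the same cofactors, and were listed with Crtap and P4hb, partners in their complexes. The genes of this list were mostly above 0 in the later step. Of 7 genes, 6 were above 0 in 13.5 over 12.5 dpc, against 46.5% of all genes, and 4 in 12.5 over 11.5 dpc, against 49.2%, with medians of 1.34 and 0.13. P4ha3, measured by a dim spot, ran the other way, with -0.65 ± 0.21 in the later and 0.44 in the earlier step. P3h1 was at least 3-fold higher in the later step, at 1.94 ± 0.18. P3h1, P3h2 and Crtap passed at 13.5 over 11.5 dpc, with 2.07, 2.09 and 1.77, and none of the 7 was 3-fold lower. With the arrays scaled to the same spread, 3 passed in the later step, P3h1, Crtap and P4ha2.

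The substrates were led by Col1a1, Col11a1 and Col11a2. Of 12 fibrillar collagen and elastin genes, 4 were at least 3-fold higher in 13.5 over 12.5 dpc and 5 in 13.5 over 11.5 dpc, and none was lower in any comparison. Those in 13.5 over 11.5 dpc were Col1a1 at 3.57 ± 0.37, Col11a1 at 3.49 ± 0.36, Col11a2 at 3.15 ± 0.17, Col2a1 at 2.34 ± 0.88 and Col24a1 at 2.02 ± 0.091. The direct arrays of Col2a1, the main cartilage collagen, were 3.98 and 0.61 there, far apart by dye. Col1a2, which encodes the other chain of collagen I, had 0.58 ± 0.78, with direct arrays of 1.71 and -0.80. Elastin itself had 0.50 ± 0.12. The list medians were 0.42 in the earlier and 1.12 in the later step, and Lox, at 1.57 and 1.58, lay above both.

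Genes that activate, load or dock the oxidases had small differences for the most part. Of 14 such genes 12 were measured, with medians of 0.26, 0.25 and 0.17. Without centring the median of 13.5 over 12.5 dpc was -0.03. Pcolce2, an enhancer of procollagen C-proteinase, was at least 3-fold higher in 13.5 over 12.5 dpc (2.02 ± 0.33) and in 13.5 over 11.5 dpc (2.48), where its relative Pcolce also passed without centring and with centring on the spots that were not dim. Tll1, a proteinase related to Bmp1, was at least 3-fold lower in 13.5 over 11.5 dpc, at -2.14 ± 0.39. Bmp1, which releases the Lox propeptide, had -0.40, 0.43 and 0.04 (± 0.14 each), and the copper pump Atp7a had -0.73, 0.05 and -0.68 (± 0.035 each). Of the docking proteins, fibronectin (Fn1) had -1.24, 0.61 and -0.62 (± 0.087 each), lowest at 12.5 dpc, and fibromodulin (Fmod) had 0.50, 0.67 and 1.17 (± 0.22 each).

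Among 6 other cross-linking genes, Tgm2, the tissue transglutaminase, was at least 3-fold higher in 13.5 over 11.5 dpc, at 2.21 ± 0.18. The list median was 0.21 in the earlier and -0.06 in the later step, unlike the hydroxylases. The hypoxia-response list, from which the members were left out, had 15 of 16 genes below 0 in 12.5 over 11.5 dpc with a median of -0.47, and 8 of 16 above 0 in 13.5 over 12.5 dpc with a median of 0.05. Of all genes, 49.2% and 46.5% were above 0 in these steps. The later step was the larger in 13 of 16, or 11 without centring. The median gap was 0.81 against 1.01 in the hydroxylases, the latter being that of Plod3, whose 2 spots disagreed. Without centring the medians of the hypoxia-response list were -0.02, with 9 of 16 below 0, and -0.23, when those of all genes were 0.44 and -0.32. With centring on the spots that were not dim the median of the later step was -0.05. Egln3, an oxygen sensor that is itself induced by hypoxia, had -1.55 in the earlier and -0.81 in the later step and was at least 3-fold lower in 13.5 over 11.5 dpc, at -2.36 ± 0.21. In the later step the list ran from -0.81 in Egln3 to 1.03 ± 0.25 in Slc2a1, the glucose transporter GLUT1, named here for its place in the list after the values were seen.

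**Figure D4:**
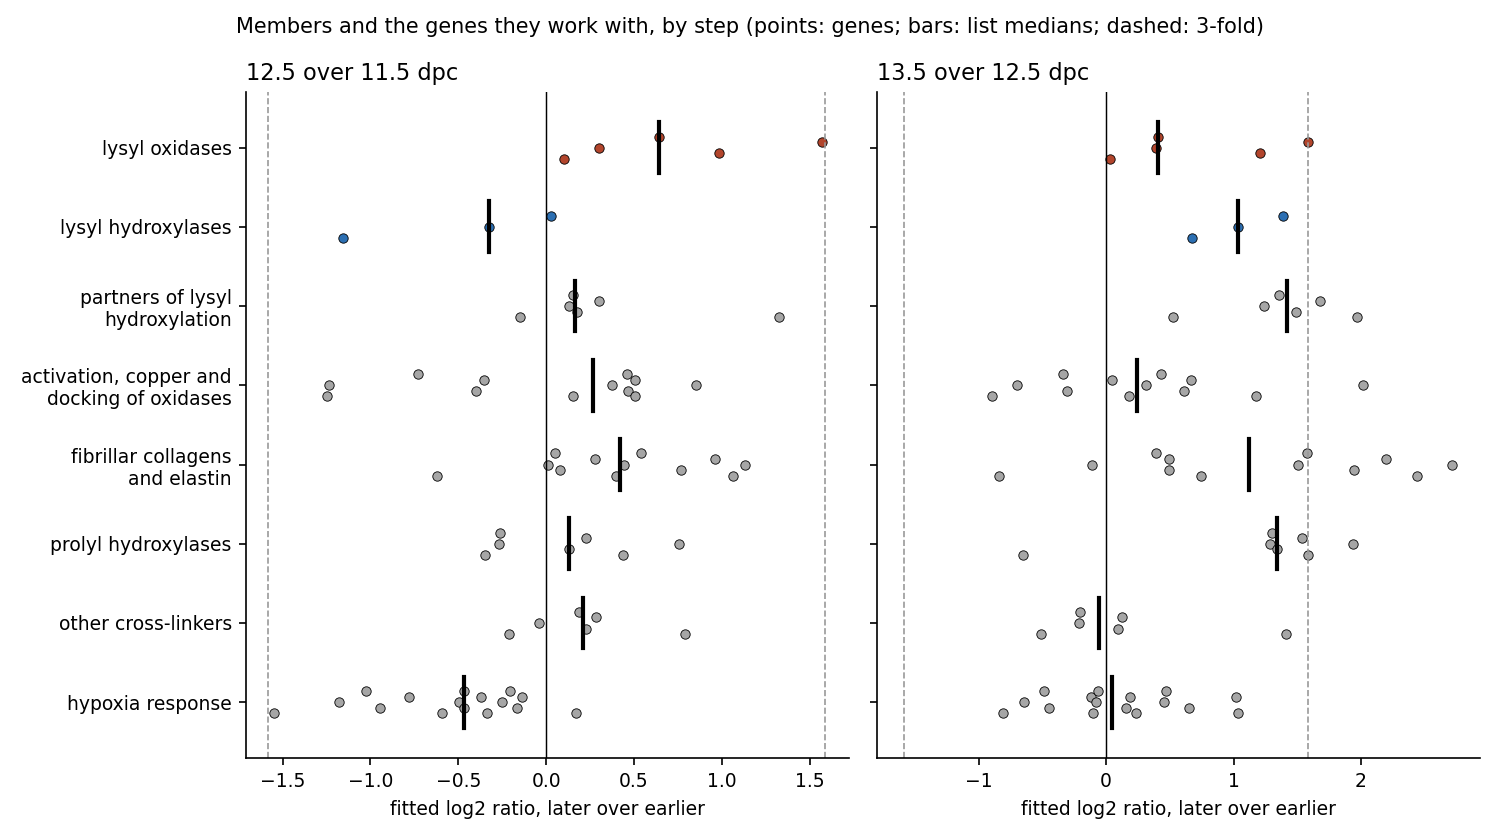
Fitted log2 ratios (horizontal axes) in the earlier step (left) and the later step (right) for the members and 6 lists of related genes (rows); each point is a gene, each thick bar a list median, and dashed lines mark 3-fold. The hydroxylases, their partners and the prolyl hydroxylases have medians of -0.33, 0.16 and 0.13 on the left and 1.03, 1.42 and 1.34 on the right. The 1.03 is the value of Plod3, whose 2 spots disagreed.

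The genes whose pattern over the 6 arrays was nearest to a member past the threshold were sought among 11786 genes with all values and no dim spot. Nearest to Lox, by root mean square distance in log2, were Ogn (0.31), Gcnt1 (0.33) and Htra1 (0.36), with fitted 13.5 over 11.5 dpc values of 3.30, 3.31 and 2.84. Ogn encodes osteoglycin, a small leucine-rich proteoglycan, and Htra1 a secreted serine protease. Nearest to Loxl3 were Fxyd3 (0.11), Foxo1 (0.12) and Sct (0.15), with 1.81, 1.84 and 1.93. Between themselves Lox and Loxl3 lay 1.05 apart, since the fitted value of Lox was the higher in each comparison.

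The alternative ways of processing left both members beyond 3-fold in 13.5 over 11.5 dpc. Lox ranged from 2.70 to 3.60 and Loxl3 from 1.70 to 2.02 there over the 16 alternatives. The single steps of Lox, which lay at the threshold, crossed it in 7 of 16 alternatives in 12.5 over 11.5 dpc and in 5 of 16 in 13.5 over 12.5 dpc. Values near 0 changed sign, that of Loxl4 in the later step in 9 alternatives, that of Plod3 in the earlier step in 5 and that of Loxl2 in the earlier step in 2.

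**Figure D5:**
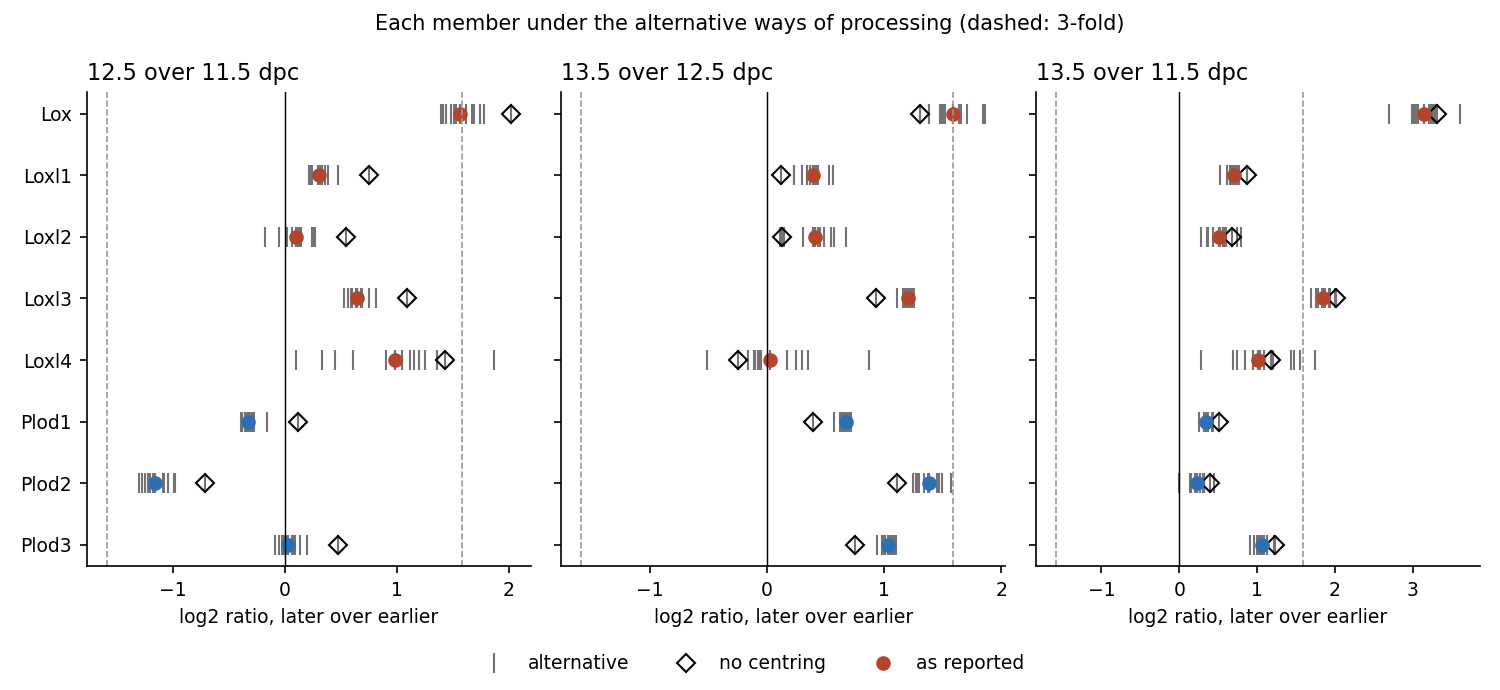
Log2 ratio of the later over the earlier pool (horizontal axes) for each member (rows) in the 3 comparisons, as reported (filled circle, oxidases in red and hydroxylases in blue), under each of the 16 alternatives (ticks) and without centring (diamonds), with dashed lines at 3-fold. Lox and Loxl3 stay beyond 3-fold in 13.5 over 11.5 dpc, and Plod2 stays between -1.30 and -0.71 in 12.5 over 11.5 dpc.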

How the data were processed

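RNA of 3 pools was compared on 6 two-colour Agilent whole mouse genome arrays. The table deposited by the authors holds the log2 of Cy5 over Cy3 for each spot, quantified with GenePix Pro from an Axon scanner. A print-tip loess step is described by the study, but the deposited log2 values do not show it: array medians lay between -0.35 and 0.73, and 11.6 to 28.4% of values equalled, to the 3 decimals deposited, a log2 ratio of whole numbers no larger than 12, compared with 1.62 to 2.19% after a small shift of the values. The numerator is not stated in the file and was taken from the dyes in the labels. As deposited, the dye-exchanged arrays correlated at -0.40, -0.33 and -0.52, and after turning the cartilage markers were higher in the later pool. Intensities were not used here.

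Absolute values above 16 (39 to 60 per array) were set to missing, as were 136 to 1905 spots without a value. Each array was turned to later over earlier and centred on its median. Both differences per spot were fitted by least squares in Python 3.11.15 with numpy 2.4.6 and pandas 2.3.3, and the code was tested on simulated data. Before the fit, the mean differences of the 3 array pairs failed to close around the loop by an SD of 0.452 log2 over spots. The GEO platform annotation gave 1 symbol to 33653 spots, several to 56 and none to 11511. Spots with 1 symbol were averaged per gene. Dim spots numbered 15051.

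Named genes are the 8 members, the genes of the related lists at least 3-fold different in any comparison, those nearest in role where a sentence needs one, and the 3 genes nearest to each member past 3-fold. The members and lists were chosen with earlier results of these data known. Alternatives changed the centring, scaling, arrays, dye combination, spots and threshold. Promoter sequences are from RefSeq (GRCm38.p6).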

Additional observations from a re-analysis of the deposited data

How the results depend on the processing

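No paired analysis was possible because no test was made: each time point was 1 pool, hybridised repeatedly. Without centring, the median of all genes shifted by 0.45, -0.28 and 0.17 in 12.5 over 11.5, 13.5 over 12.5 and 13.5 over 11.5 dpc, and the shares of genes at least 3-fold higher and lower were 4.47% and 0.0734%, 0.902% and 1.604%, and 3.71% and 1.79%, in place of 1.24% and 0.299%, 1.35% and 0.776%, and 2.93% and 2.57%. The median of the 8 members was then 0.65 in 12.5 over 11.5 dpc and 0.57 in 13.5 over 12.5 dpc. In 13.5 over 12.5 dpc it was 0.75 with centring on the spots that were not dim and 0.95 with dim spots left out, and in 13.5 over 11.5 dpc it was 0.48 with dye combination 1 alone.

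The count of members at least 3-fold higher in 12.5 over 11.5 dpc was 1, Lox, without centring, with centring on the spots that were not dim and on the indirect path alone, and 2, Lox and Loxl4, with dye combination 2 alone. In 13.5 over 12.5 dpc it was 1, Lox, on the indirect path and with dye combination 2, and in 13.5 over 11.5 dpc it was 3 with dye combination 2, as Loxl4 passed (1.75). Leaving out 1 array gave counts from 0 to 1 in each of these steps; Lox passed in 12.5 over 11.5 dpc without 12.5 over 11.5 dpc array 1 (1.78), 13.5 over 12.5 dpc array 2 (1.67) or 13.5 over 11.5 dpc array 1 (1.62), and in 13.5 over 12.5 dpc without 12.5 over 11.5 dpc array 2 (1.66), 13.5 over 12.5 dpc array 1 (1.85) or 13.5 over 11.5 dpc array 1 (1.63). At a 2-fold threshold 1, 4 and 4 members were higher in the 3 comparisons, and 1, Plod2, was lower in 12.5 over 11.5 dpc, against 6.23%, 4.79% and 7.43% of all genes higher and 2.56% lower. No member past 3-fold changed sign. Of 384 values of single members under 16 alternatives, 18 changed sign and 14 changed side of 3-fold. Weak signals limit the second spot of Loxl4 most.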
